A study of Mus musculus with 9 samples.

Results

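The genes described here are 10 members of the TGF-beta and BMP pathway, taken by gene name: the receptors Tgfbr1, Tgfbr2, Acvrl1 and Bmpr2, the coreceptor Eng, the inhibitors Smad6, Smad7 and Pmepa1, and the target genes Id1 and Id3. All peaks of open chromatin that the authors' annotation assigned to these genes were used, 530 of 253457 peaks in 9 libraries. Merging peaks that overlapped by at least 1 bp gave 138 regions, of which 9 were promoter regions and 129 were distal. A promoter region is one in which some library had a peak of the class promoter-TSS, where TSS is the transcription start site. Acvrl1 had no promoter region in that sense.

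The libraries were made by Omni-ATAC-seq, where the transposase Tn5 cuts and tags accessible DNA, from nuclei of endothelial cells (ECs) purified from mouse brain. The EC-K4KO mice carried floxed Klf4 and CDH5-CreERT2, a tamoxifen-inducible Cre recombinase driven by the promoter of VE-cadherin, and the WT Cre mice were the Cre controls. The groups were young WT Cre (n = 2), young EC-K4KO (n = 3), old WT Cre (n = 2) and old EC-K4KO (n = 2). The study calls the libraries biological replicates and gives the line as being on a C57BL/6J background, with mice of both sexes used in the study. The labels do not say whether animals were pooled or which sex a library came from.

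TGF-beta and BMP ligands bind pairs of type I and type II receptors at the cell surface, and the activated type I receptor phosphorylates receptor SMADs, which enter the nucleus with SMAD4. In ECs, BMP9 signals through ACVRL1 (also called ALK1), BMPR2 and the coreceptor endoglin, encoded by Eng, and loss of ACVRL1 or endoglin causes hereditary hemorrhagic telangiectasia. TGF-beta signals through TGFBR2 and TGFBR1. SMAD6 and SMAD7 are inhibitory SMADs that feed back on the receptors, PMEPA1 restrains TGF-beta signaling, and the inhibitors of DNA binding ID1 and ID3 are direct targets of BMP signaling. KLF4, the deleted factor, is a zinc finger transcription factor that binds CACCC-type and GC-rich DNA.

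The peak lists differed in length between groups, which bears on every count below. They held 6157 and 9598 peaks in young WT Cre, 23848 to 27992 in young EC-K4KO, 43893 and 32555 in old WT Cre, and 45026 and 39079 in old EC-K4KO. Read depth is unknown, and the library names carry 1 prefix for all young and another for all old libraries, so that age and this prefix cannot be told apart. A Klf4 promoter-TSS peak was in all 9 lists, and peak lists do not show whether the floxed part of the gene was lost. Of 10 EC markers, 5 to 9 per library had a promoter-TSS peak, with Cldn5, Tie1, Flt1 and Erg in every library, Pecam1 and Tek in 6 libraries but neither young WT Cre one, and Emcn in none. Of 8 pericyte and smooth muscle markers, 0 had one in any young library, 0 and 2 in old WT Cre, and 5 and 3 in old EC-K4KO, with Rgs5 and Abcc9 in none. Microglial markers had 0 of 8 in every library. The other lists of 8 reached 3 for astrocyte, 2 for neuron, 1 for oligodendrocyte and 1 for erythroid and neutrophil markers. The part of these other cells in the results below was not tested.

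The number of peaks assigned to the 10 genes rose with the length of the list, and the rise was in distal peaks. Member peaks numbered 18 and 22 in young WT Cre, 36, 51 and 63 in young EC-K4KO, 76 and 72 in old WT Cre, and 101 and 91 in old EC-K4KO. No 2 of the 4 groups overlapped in this count. Distal member peaks numbered 10 and 15, then 28, 43 and 57, then 70 and 66, then 95 and 85 in the same order. Promoter-TSS peaks of the 10 genes stayed between 6 and 8 in every library. Over the genome, genes with such a peak numbered 3399 and 4479 in young WT Cre and 8468 and 8279 in old EC-K4KO. Distal peaks thus made up 61.9% ± 8.93 (SD, n = 2), 84.2% ± 6.35 (n = 3), 91.9% ± 0.31 (n = 2) and 93.7% ± 0.46 (n = 2) of member peaks, against 48.8%, 73.0%, 78.0% and 79.7% of all peaks. Within age, EC-K4KO exceeded WT Cre by 26.0 member peaks per library, with a spread within groups of 9.30 (pooled SD, n = 9), and old exceeded young by 50.0 within genotype.

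The lists as a whole grew by similar factors. Relative to the young WT Cre mean, young EC-K4KO held 3.26 times as many peaks in all and 2.5 times as many member peaks. The factors were 4.85 and 3.7 in old WT Cre, and 5.34 and 4.8 in old EC-K4KO. Per 1000 listed peaks, the 10 genes had 2.92 and 2.29 peaks in young WT Cre, 1.51, 2.02 and 2.25 in young EC-K4KO, 1.73 and 2.21 in old WT Cre, and 2.24 and 2.33 in old EC-K4KO, so the groups overlapped on this scale. When each list was reduced to its 6157 strongest peaks by -log10 p, as many as the shortest list holds, 18 and 14 member peaks were left in young WT Cre, 20, 14 and 14 in young EC-K4KO, 12 and 13 in old WT Cre, and 14 and 12 in old EC-K4KO. The difference between genotypes was then 0.25 peaks and that between ages -3.25 peaks, the opposite direction for age.

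**Figure D1:**
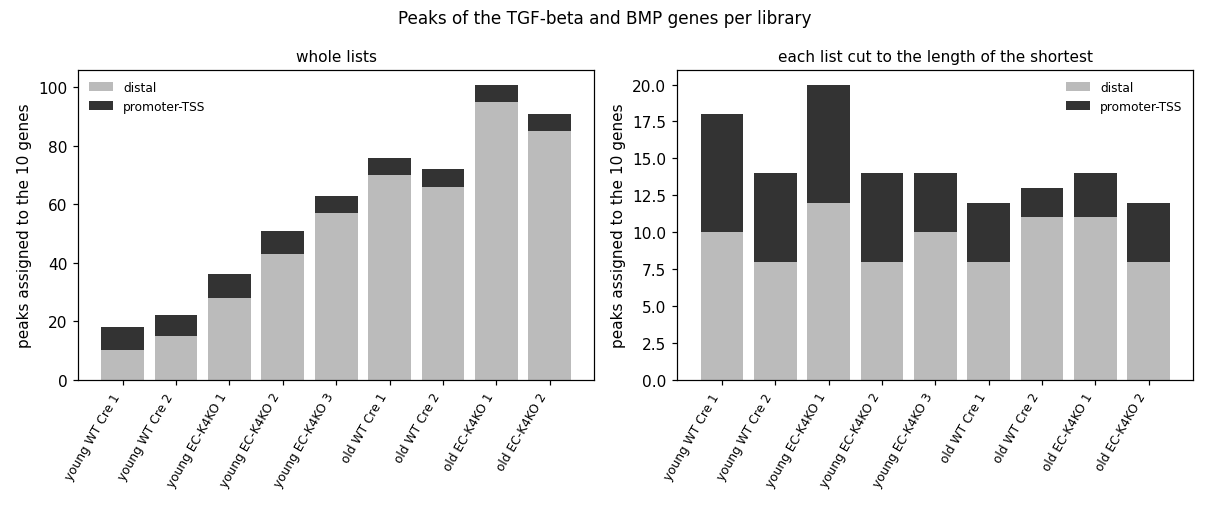
Number of peaks assigned to the 10 genes in each library, split into promoter-TSS peaks (dark) and distal peaks (light), in whole lists (left) and in lists cut to their 6157 strongest peaks (right). The whole lists hold 18 to 101 member peaks and the equal-length lists 12 to 20.

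The regions of these genes were found in more libraries than the average region. Of the 138 member regions, 15 (10.9%) were in all 9 lists, against 5.27% of 92495 regions over the genome, and 36.2% were in 1 list, against 57.3%. Tgfbr2 alone had 52 regions and 146 peaks, reaching 517.3 kb from its start site, and Acvrl1 and Eng had 5 regions each within 19.6 kb and 18.8 kb. A distal peak is assigned to the nearest start site, which does not show which gene it acts on.

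Most members had accessible promoters in every group. Promoter-TSS peaks of Tgfbr1, Eng, Smad6 and Smad7 were in 9 lists and those of Id1 in 8, whereas 20.4% of 11168 genes with such a peak anywhere had it in all 9. The Pmepa1 promoter-TSS peak was in 7 lists, Bmpr2 in 5, Id3 in 3 and Tgfbr2 in 2. The promoter regions of Bmpr2, Id3 and Tgfbr2 nevertheless held a peak in all 9 lists, since the class follows the centre of the peak, which lay outside the promoter window in the other lists. Member genes with a promoter-TSS peak therefore numbered 8 and 7 in young WT Cre, 8, 8 and 6 in young EC-K4KO, and 6 in each old library. Over all genes the count rose, by 2840 from young to old within genotype and by 1594 from WT Cre to EC-K4KO within age. When members were counted instead by any peak centred within 1000 bp of the start site, their difference between old and young turned from -1.42 to 1.33 genes. That between EC-K4KO and WT Cre turned from -0.08 to 0.67.

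Peaks were then compared within the 4872 regions present in all 9 lists, where each library has a value for every region. Of the members, 15 of 138 regions entered, 8 promoter and 7 distal. The regions were ranked by -log10 p in each library, and the ranks were turned into normal scores, so that a difference of 1 is 1 SD of the ranks and a negative value is a lower place. A lower place means weaker relative to the other shared regions and not fewer reads. Between EC-K4KO and WT Cre within age, limma called 37 of 4872 regions (0.759%), and 1 of the 15 member regions. This count was 214 and 318 without young WT Cre 1 and 2, 43 without young EC-K4KO 1, and 0 to 8 without any 1 of the other 6 libraries. Between old and young within genotype it called 1017 regions (20.9%), and 3 of the 15, which is near the background. For the interaction of genotype and age it called 0% of regions, with 525 regions at an unadjusted p under 0.05. Of the 15 member regions, 13 had a negative age estimate, with a median of -0.28 against 0.03 over all shared regions, and 11 had a negative genotype estimate, with a median of -0.13 against 0.01. The age estimate was above 0 in 52.3% of all shared regions and in 2 of the 15 members. For genotype it was above 0 in 50.8% and in 4 of the 15. Whether the members differ from all regions as a set was not tested.

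Width was compared on the log2 scale after centring on the median of each list, since peaks as a whole were wider in the longer lists. Without centring, the median shared region was 0.35 (log2) wider in EC-K4KO than in WT Cre and 0.47 wider in old than in young. The uncentred estimate was above 0 in 98.3% of all shared regions for both contrasts, and in 15 and 14 of the 15 member regions. Raw widths of single regions below are to be read beside that share. With centring, limma called 14 regions (0.287%) between genotypes and 0 of the 15 member regions. Between ages it called 371 regions (7.61%), of which 179 were wider and 192 narrower in old, and 3 of the 15 member regions. Without centring the calls were 1506 wider and 0 narrower in EC-K4KO, and 3279 wider and 1 narrower in old, with 6 and 12 of the 15 member regions called. The median member promoter-TSS peak was 309.5 and 396 bp wide in young WT Cre and 575.5 to 999.5 bp in the other libraries, against 366 and 390 bp, and 499 to 640 bp, over all promoter-TSS peaks.

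Among the receptors, Tgfbr1, the type I receptor for TGF-beta, had the strongest promoter. Its peak (chr4:47352752-47353538, build mm10) lay in the top 9.84% and 6.68% of the young WT Cre lists, 3.54%, 2.58% and 3.68% of young EC-K4KO, 4.03% and 2.24% of old WT Cre, and 1.77% and 1.56% of old EC-K4KO. Its place among the shared regions was 12.4% to 34.3% from the top with overlapping groups, and neither contrast was called (EC-K4KO minus WT Cre 0.08, 95% interval -0.30 to 0.46, adjusted p = 0.854). The peak was 399 and 485 bp wide in young WT Cre, 768, 653 and 718 bp in young EC-K4KO, 515 and 516 bp in old WT Cre, and 627 and 549 bp in old EC-K4KO. The young EC-K4KO peaks were the widest, and the old ones lay between those and young WT Cre. Relative to the list medians it was narrower in old (log2 difference -0.51 ± 0.10 SE, adjusted p = 0.0381), but without centring the difference was -0.02 (adjusted p = 0.819), and the peak was then called wider in EC-K4KO (0.44, adjusted p = 0.0204). The call was also lost on leaving out young EC-K4KO 2 or 3 or any of the 4 old libraries (adjusted p = 0.0523 to 0.164).

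Tgfbr2, the type II receptor for TGF-beta, gave a narrow and weak promoter peak in young WT Cre and a wider one elsewhere. The peak (chr9:116174479-116175635) was 213 and 257 bp wide in young WT Cre, 422, 763 and 823 bp in young EC-K4KO, 869 and 677 bp in old WT Cre, and 1157 and 1054 bp in old EC-K4KO. Both young WT Cre values lay below all others and both old EC-K4KO values above all others. Relative to the list medians it was wider in old by 0.76 ± 0.17 (log2, SE, adjusted p = 0.0430), and the genotype difference of 0.61 ± 0.17 was not called (adjusted p = 0.137) except without centring (0.99, adjusted p = 0.0188). The age call was lost on leaving out young EC-K4KO 2 or 3 or any old library (adjusted p = 0.0523 to 0.164). Its place among the shared regions was low throughout, between 84.9% and 99.2% from the top. A distal region of Tgfbr2 at -43.7 kb was in all 9 lists, and another at -38.0 kb was in 0 young WT Cre lists, 2 of 3 young EC-K4KO lists and all 4 old lists, reaching the top 10.2% of old EC-K4KO 1.

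Bmpr2, the type II receptor for BMPs, had a promoter region that spread upstream. It was 766 and 578 bp wide in young WT Cre, 1248, 1067 and 1281 bp in young EC-K4KO, 1335 and 1390 bp in old WT Cre, and 1521 and 1454 bp in old EC-K4KO, so young WT Cre lay below all others. Relative to the list medians no width contrast was called (old minus young 0.19, 95% interval -0.15 to 0.53, adjusted p = 0.421). Without centring both were (old minus young 0.67, adjusted p = 0.00391, and EC-K4KO minus WT Cre 0.49, adjusted p = 0.0219). Its place among the shared regions was 65.9% to 97.8% from the top with an age difference of -0.62 ± 0.28 (SE, adjusted p = 0.144).

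Acvrl1, the endothelial type I receptor for BMP9, had no promoter-TSS peak, and its regions found in all 9 lists lay within and at the end of the gene. An upstream region at -5.1 kb was in 0 young WT Cre lists, in 2 of 3 young EC-K4KO lists and in all 4 old lists. A narrow peak at +0.3 kb in an intron, 194 to 336 bp wide, was in 0 young WT Cre lists, in 1 of 3 young EC-K4KO lists and in all 4 old lists. An intronic region at +5.8 kb and a region at the transcript end at +17.1 kb (chr15:101145241-101145977) were in all 9 lists. The latter was in the top 14.6% and 7.74% of young WT Cre, 13.2%, 11.9% and 19.8% of young EC-K4KO, 3.42% and 5.90% of old WT Cre, and 6.12% and 10% of old EC-K4KO. Among the shared regions it stood at 18.5% and 15.1% from the top in young WT Cre, 58.4%, 56.0% and 83.4% in young EC-K4KO, 29.3% and 37.2% in old WT Cre, and 49.9% and 63.7% in old EC-K4KO. Every EC-K4KO value lay below every WT Cre value of the same age, but the difference of -1.01 ± 0.20 (SE) missed the threshold (adjusted p = 0.0502, range over 12 alternatives 0.0274 to 0.291).

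Eng, the coreceptor endoglin, had a small promoter peak and a strong intronic region. The promoter peak was 210 and 220 bp wide in young WT Cre, 247, 587 and 523 bp in young EC-K4KO, 597 and 635 bp in old WT Cre, and 520 and 565 bp in old EC-K4KO. Both young WT Cre widths were below all others, while the age difference relative to the list medians was not called (0.45, 95% interval -0.04 to 0.94, adjusted p = 0.195) except without centring (0.94, adjusted p = 0.0160). The intronic region at +8.9 kb (chr2:32654672-32656340) was in the top 7.97% and 23.8% of young WT Cre, 5.38%, 6.52% and 4.91% of young EC-K4KO, 2.55% and 4.65% of old WT Cre, and 2.31% and 2.20% of old EC-K4KO. Its width was 421 bp in young WT Cre 1 and 1413 to 1630 bp in the other 8 libraries, and no contrast in rank or width was called.

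The 200 bases at the centre of the stretch that this Eng region covers in every list (chr2:32655895-32656094, mm10, plus strand) are shown because it was an intronic region of an endothelial coreceptor gene found in all 9 lists, and the capitals mark the ETS core GGAAGT on either strand. It held the core on both strands, 1 match each. Of 1461 shared regions without a promoter peak, 22.0% held at least 1 such match in a window of that length.
Eng +8.9 kb: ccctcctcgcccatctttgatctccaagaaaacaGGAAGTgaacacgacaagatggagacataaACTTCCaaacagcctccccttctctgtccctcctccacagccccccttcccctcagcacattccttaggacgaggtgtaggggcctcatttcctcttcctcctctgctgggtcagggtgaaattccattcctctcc

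Smad6 and Smad7 encode the inhibitory SMADs, of which SMAD6 acts mainly on BMP and SMAD7 on both branches. The Smad6 promoter peak was 233 and 396 bp wide in young WT Cre, 1218, 1327 and 1296 bp in young EC-K4KO, 1385 and 1385 bp in old WT Cre, and 1396 and 1414 bp in old EC-K4KO. In young WT Cre it lay wholly upstream, ending -0.87 and -0.68 kb from the start site, whereas in the other 7 libraries it ran across the start site, to between 0.06 and 0.19 kb. Relative to the list medians, it was wider in old by 0.68 ± 0.12 (log2, SE, adjusted p = 0.0311) and in EC-K4KO by 0.67 ± 0.12, which was not called (adjusted p = 0.0887). Without centring both were called (1.16, adjusted p = 0.00218, and 1.05, adjusted p = 0.00688). The age call on centred width was lost without young EC-K4KO 2 or 3 or any old library (adjusted p = 0.0519 to 0.155).

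The place of the Smad6 promoter among the shared regions went down while its peak widened. It stood at 43.6% and 58.7% from the top in young WT Cre, 75.5%, 72.7% and 75.8% in young EC-K4KO, 88.3% and 88.1% in old WT Cre, and 79.8% and 78.4% in old EC-K4KO. Young and old did not overlap, with an age difference of -0.65 ± 0.15 (SE, adjusted p = 0.0150), lost without old WT Cre 1 or either old EC-K4KO library (adjusted p = 0.0571 to 0.0773). The -log10 p is an average over the whole peak, so place and width are not independent measures, here or at the other regions. In the whole lists it moved the other way, from the top 34.9% and 33.2% in young WT Cre to 12.8% and 14.3% in old EC-K4KO.

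The 200 bases around the centre of the stretch that the Smad6 peak covered in all 9 libraries (chr9:64022932-64023131, mm10, minus strand, which is the coding strand) are shown as the part of this promoter that was accessible in young WT Cre too. Capitals mark the CACCC box CCACCC on either strand, the motif type bound by KLF factors, with 2 matches, and the palindromic GC-rich SMAD element GGCGCC, with 1. Of 3411 shared regions with a promoter peak, 26.4% held a CACCC box and 19.3% the GC-rich element.
Smad6 promoter: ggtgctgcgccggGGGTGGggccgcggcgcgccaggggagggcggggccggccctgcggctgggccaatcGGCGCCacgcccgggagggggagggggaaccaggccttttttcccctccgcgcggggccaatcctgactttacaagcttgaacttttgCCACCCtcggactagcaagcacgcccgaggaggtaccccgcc

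**Figure D2:**
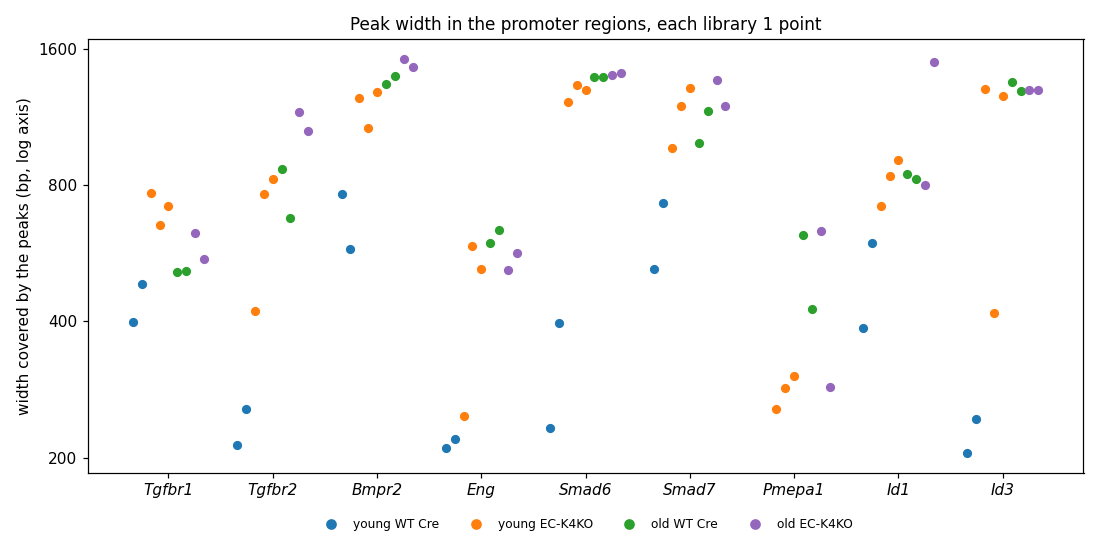
Width covered by peaks in each promoter region (bp, log axis), with 1 point per library and colours for the 4 groups. Young WT Cre points are the lowest for Tgfbr1, Tgfbr2, Bmpr2, Eng, Smad6, Smad7, Id1 and Id3, and are missing for Pmepa1, which had no peak in either of those libraries. Widths are not centred here, and without centring 98.3% of all shared regions had a wider estimate in EC-K4KO and in old. How many shared regions set young WT Cre lowest in this way was not counted.

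Smad7 showed a wide promoter peak and several intronic peaks that young WT Cre lacked. The promoter peak was 522 and 731 bp wide in young WT Cre, 964, 1195 and 1307 bp in young EC-K4KO, 991 and 1168 bp in old WT Cre, and 1363 and 1196 bp in old EC-K4KO. No contrast in its rank or centred width was called, while without centring it was wider in EC-K4KO (0.57, adjusted p = 0.0278) and in old (0.48, adjusted p = 0.0241). A distal region at -24.6 kb stood at 77.5% and 90.8% from the top of the shared regions in young WT Cre, 73.6%, 90.0% and 88.8% in young EC-K4KO, 98.2% and 96.8% in old WT Cre, and 96.0% and 95.2% in old EC-K4KO. All old values lay below all young ones, with a difference of -0.79 ± 0.19 (SE, adjusted p = 0.0192), lost without old WT Cre 1 or either old EC-K4KO library (adjusted p = 0.0758 to 0.0828). Ranked by fold enrichment it was -0.38 (adjusted p = 0.234). The region was 753 and 278 bp wide in young WT Cre, 462 to 1293 bp in young EC-K4KO and 1253 to 1422 bp in the old libraries. Its centred width was not called between ages (0.57, adjusted p = 0.342). Intronic peaks at +10.1 kb were in 0 young WT Cre lists and in all 7 others, in the top 20.9% to 29.3% of young EC-K4KO and the top 14.6% to 18.2% of the old lists.

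Pmepa1, an inhibitor and TGF-beta target, was the 1 member whose promoter-TSS peak was in 0 young WT Cre lists and in at least 2 lists of each other group. It ranked in the top 8.39%, 7.16% and 4.41% of young EC-K4KO, 25.9% and 20.1% of old WT Cre, and 20.0% and 12.9% of old EC-K4KO. The 3 young EC-K4KO values were higher in their lists than all 4 old ones. The peak was 257, 285 and 303 bp wide in young EC-K4KO, 620 and 426 bp in old WT Cre, and 634 and 287 bp in old EC-K4KO. In equal-length lists the gain held in young EC-K4KO and in neither old group.

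Gains of this kind were common in the genome. Of the promoters that young EC-K4KO held, 38.0% were in no young WT Cre list, and the members gave 1 of 7. The shares were 42% for old WT Cre and 45.2% for old EC-K4KO, and the members gave 1 of 6 in both. When promoters were defined by a peak within 1000 bp of the start, Acvrl1 joined Pmepa1 in both old groups. The 200 bases before the Pmepa1 start (chr2:173276534-173276733, mm10, minus strand) are shown because Pmepa1 was the 1 member with a gained promoter-TSS peak. They have a GC content of 79.0% and 33 CpG dinucleotides, and 36 of them overlap an exon of the antisense transcript Pmepa1os. Both strands were searched for 5 motifs, and none was found in these bases. The CACCC box was the only KLF motif among the 5, and other GC-rich sites that KLF4 may bind were not searched for. Of 21911 protein-coding promoters of that length, 34.2% held the SMAD box CAGAC, 9.60% the GC-rich SMAD element GGCGCC, 24.9% the CACCC box CCACCC, 17.1% the ETS core GGAAGT and 4.82% the AP-1 site TGANTCA.
Pmepa1 promoter: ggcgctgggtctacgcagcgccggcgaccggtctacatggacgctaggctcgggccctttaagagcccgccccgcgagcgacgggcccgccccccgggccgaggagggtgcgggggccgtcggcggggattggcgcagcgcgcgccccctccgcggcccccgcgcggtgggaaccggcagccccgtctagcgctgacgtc

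Id1, the BMP target used as a readout of SMAD1/5 activity, had peaks over and upstream of its start that differed between libraries. The start site peak was in 8 lists as a peak of its own, 372 to 599 bp wide. A further peak at -1.1 kb, 223 to 314 bp wide, was in 7 lists, absent from young WT Cre 1 and fused with the start site peak into 1498 bp in old EC-K4KO 2. It ranked in the top 26.1% of young WT Cre 2, 9.29%, 5.65% and 10.6% of young EC-K4KO, 6.33% and 16.0% of old WT Cre, and 5.02% of old EC-K4KO 1. In young EC-K4KO 1 and 2 it was stronger than the start site peak. Since the fused peak joins both into 1 promoter region, its rank and width mix them, and no contrast was called for that region except uncentred width between ages (0.61, adjusted p = 0.0373).

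Id1 is known to carry a BMP-responsive element with SMAD sites upstream of its start, and the stretch common to these 7 peaks was therefore read from the genome. The 200 bases (chr2:152735077-152735276, mm10, plus strand) hold 3 SMAD boxes CAGAC on the 2 strands, 1 GC-rich SMAD element GGCGCC and 1 CACCC box CCACCC, all in capitals. Of the shared regions with a promoter peak, as this one is, 32.5% held at least 1 SMAD box, 19.3% the GC-rich element and 26.4% a CACCC box, and of those without, 39.6%, 10.7% and 29.1%.
Id1 -1.1 kb: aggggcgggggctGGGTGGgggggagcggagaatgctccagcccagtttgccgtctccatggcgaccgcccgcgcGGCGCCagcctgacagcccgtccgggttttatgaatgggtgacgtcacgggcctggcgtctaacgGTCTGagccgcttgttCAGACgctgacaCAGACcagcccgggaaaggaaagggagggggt

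Further upstream, the region at -9.4 kb (chr2:152726365-152727305) was the 1 member region called between genotypes. Its peak had a -log10 p of 8.69 and 7.0 in young WT Cre, 11.9, 9.69 and 14.5 in young EC-K4KO, 25.8 and 22.7 in old WT Cre, and 12.8 and 10.1 in old EC-K4KO. The value was thus lower in old EC-K4KO, with lists of 45026 and 39079 peaks, than in old WT Cre, with 43893 and 32555. The cause was not tested. The place of the region among the shared regions was 41.4% and 68.9% from the top in young WT Cre, 70.7%, 96.6% and 89.8% in young EC-K4KO, 90.5% and 89.1% in old WT Cre, and 99.9% and 99.9% in old EC-K4KO. EC-K4KO lay below WT Cre of the same age in every library.

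The genotype difference at -9.4 kb was -1.41 ± 0.25 (SE, adjusted p = 0.0480) and the age difference -1.46 ± 0.25 (adjusted p = 0.00451). The age call held without any 1 library (adjusted p = 0.00177 to 0.0318). The genotype call held on leaving out a young WT Cre library or young EC-K4KO 1, and was lost without any of the 6 others (adjusted p = 0.102 to 0.269), at estimates between -1.25 and -1.43. It was also lost when regions were ranked by fold enrichment (-1.02, adjusted p = 0.145). The interaction was not called (-0.66, 95% interval -1.78 to 0.46, adjusted p = 0.688). The peak widened from 508 and 359 bp in young WT Cre to 852 and 850 bp in old EC-K4KO, without a call.

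The centre of this region (chr2:152726951-152727150, mm10, plus strand) is shown for that reason. In capitals it holds 1 CACCC box, 1 ETS core GGAAGT and 1 AP-1 site TGANTCA, and no SMAD box or GC-rich SMAD element. The CACCC box was in 29.1% of shared regions without a promoter peak, the ETS core in 22.0% and the AP-1 site in 13.3%.
Id1 -9.4 kb: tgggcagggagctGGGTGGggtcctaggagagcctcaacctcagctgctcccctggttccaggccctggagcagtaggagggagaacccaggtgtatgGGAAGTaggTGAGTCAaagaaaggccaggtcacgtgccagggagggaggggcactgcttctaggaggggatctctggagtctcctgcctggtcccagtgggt

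A neighbouring Id1 region at -8.0 kb (chr2:152727964-152728488) was in 0 of 2 young WT Cre lists and in all 7 others, in the top 20.2%, 18.4% and 26.0% of young EC-K4KO, 18.9% and 18.6% of old WT Cre, and 22.7% and 25.8% of old EC-K4KO. Old EC-K4KO stood lower in its lists than old WT Cre, and young EC-K4KO overlapped both. Unlike at -9.4 kb, the -log10 p was not lower in old EC-K4KO (32.2 and 27.6) than in old WT Cre (25.5 and 26.7).

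**Figure D3:**
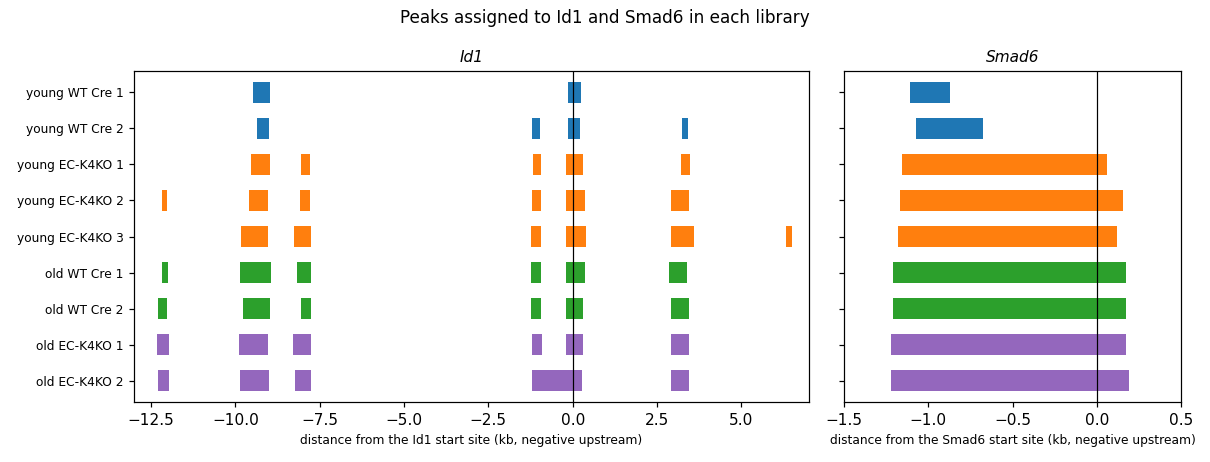
Peaks assigned to Id1 (left) and Smad6 (right) in each library, drawn to scale as bars along the distance from the start site (kb, negative upstream; for Smad6, peaks outside the axis are not shown). At Id1 the region at -9.4 kb is in all 9 libraries and that at -8.0 kb in 7, and at Smad6 the peak reaches the start site in the 7 libraries other than young WT Cre.

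Id3, the second BMP target, had a promoter peak of 205 and 244 bp in young WT Cre, 1301, 418 and 1258 bp in young EC-K4KO, 1348 and 1292 bp in old WT Cre, and 1298 and 1297 bp in old EC-K4KO. Young EC-K4KO 2 stood between young WT Cre and the others. Relative to the list medians the age difference was 1.07 ± 0.34 (log2, SE) and was not called (adjusted p = 0.0815), but it was without centring (1.56, adjusted p = 0.00854). Its distal region at -3.3 kb was in the top 5.56% to 22.2% of all 9 lists.

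**Figure D4:**
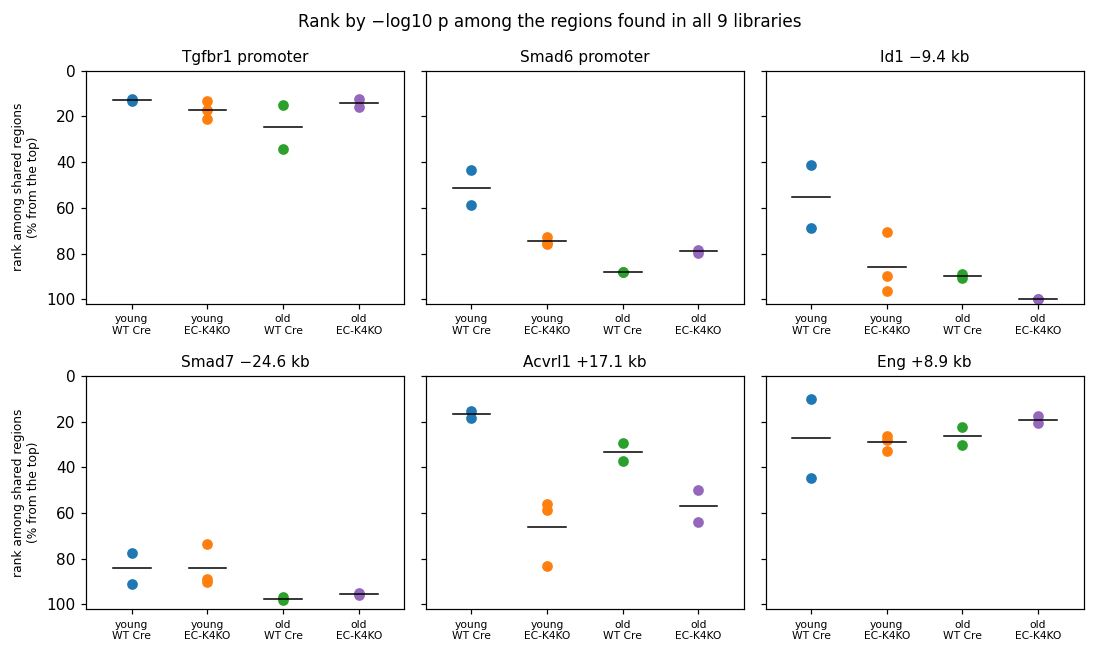
Place of 6 member regions among the 4872 regions found in all 9 libraries, as a percentage from the top by -log10 p, with 1 point per library and a line at the group mean. Id1 -9.4 kb has group means of 55.1% in young WT Cre and 99.9% in old EC-K4KO, and Tgfbr1 stays within the top 34.3%.

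Distal regions gained against young WT Cre were common among the members, as elsewhere. Of the 33 distal member regions that young EC-K4KO held in at least 2 lists, 18 were in no young WT Cre list (54.5%), against 66.3% of all distal regions. The numbers were 34 of 49 (69.4%) against 78.9% for old WT Cre, and 57 of 72 (79.2%) against 85.8% for old EC-K4KO, so the members lay below the background in each group. Besides those named above, the gained regions that stood highest were Bmpr2 +69.6 kb in young EC-K4KO, Smad7 +11.5 kb in old WT Cre, and Smad6 +53.3 kb in old EC-K4KO, in the top 13.1% and 14.0% there. In all, 114 member regions (82.6%) were in no young WT Cre list, against 88.3% of all regions, and 62 (44.9%) were in old libraries alone, against 47.1%. Fewer ECs, a weaker library and less accessible DNA per nucleus cannot be told apart in such lists.

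Other genes of the pathway were counted in the same way. Of 50 further genes, 48 had a peak and 32 a promoter-TSS peak in some list, and 8 had the latter in all 9, namely Bambi, Smad2, Smad3, Smad4, Ski, Tob1, Id2 and Hey1. Against young WT Cre, 9 of 21 promoters were gained in young EC-K4KO, 9 of 21 in old WT Cre and 12 of 24 in old EC-K4KO, near the genome backgrounds above. Among receptors these were Acvr1, Acvr1b, Acvr2a and Bmpr1a in all 3 groups, the type I and type II partners for BMPs and activins. Of the 6 other SMAD genes, each group held the promoters of 4 and gained 0. Smad2, Smad3 and Smad4 were in all 9 lists, young WT Cre included, and so could not be gained. The ligand Tgfb3 and the regulators Bmper and Smurf2 were gained in all 3 groups, Tgif1 in both old groups, Tgfb1 in both EC-K4KO groups, and Bmp6 and Nog in old EC-K4KO. These groups share the same 2 young WT Cre controls.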

How the data were processed

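Omni-ATAC-seq peak lists of 9 libraries were used. Per the study's methods, the authors used TrimGalore for trimming and Bowtie2 for mapping to mm10, removed duplicates, and ran MACS2 on the paired fragments in its broad mode. Each deposited list holds 1 library. The deposited values are a score, a fold enrichment over the caller's local background as a ratio, a -log10 p and a -log10 q, each averaged over a peak. Per the file headers, HOMER gave each peak the authors' class, gene name and distance to the TSS. Read counts were not analysed here, so depth is unknown and the authors' DiffBind test was not rerun.

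Samples were grouped by labelled genotype and age. Peaks of all libraries overlapping by at least 1 bp were merged into regions. Rank used the strongest peak of a region by -log10 p, and width the bases covered by its peaks. Normal scores of rank, and log2 width centred on the list median, were fitted over 4872 shared regions with limma 3.58.1 in R 4.3.3 (group means, genotype within age, age within genotype, interaction), two-sided, with Benjamini-Hochberg adjustment over all shared regions and a threshold of 0.05. Intervals are 95%. Gained means in at least 2 lists of a group and in no young WT Cre list. Sequence came from GRCm38.p6 with start sites of GENCODE M21, in windows of 200 bases. Python 3.11.15, pandas 2.3.3 and matplotlib 3.10.9 were used, and the fit was tested on simulated data. The text names all 10 members, their promoter regions, distal regions in all 9 lists, called regions and the 3 strongest gained distal regions per group. The members and the lists of markers and pathway genes were chosen with earlier results of these data known. P-values measure the spread between these libraries. Alternatives were a stricter q, equal-length lists, other promoter, rank and width definitions, the replicate number as a block, and leaving out each library.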

Additional observations from a re-analysis of the deposited data

How the results depend on the processing

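Equal-length lists brought the member peak difference between genotypes to 0.25 and that between ages to -3.25, and member genes with a promoter-TSS peak to -3.25 between ages. That gene count changed sign between genotypes with q under 0.01 (0.17), with a 1000 bp window (0.67, and 1.33 between ages) and among left-out libraries (-0.33 to 0.25). Gained promoters in each old group were 0 in equal-length lists and 2 with the 1000 bp window. Replicate numbers were not used as pairs in the main fit. Deviations from the group means correlated at -0.013 to 0.12 between same-numbered libraries, over 0.1 in 1 of 12 pairs. In a group of 2 the 2 deviations mirror each other, so these pairs are not independent. The correlations therefore cannot show whether the samples were paired. With the replicate block, calls between genotypes fell to 0 by rank and 0 by width, and those between ages to 30 by width. It ended the calls of Id1 -9.4 kb between genotypes (adjusted p = 0.130) and of the Tgfbr1 (0.0880), Tgfbr2 (0.0889) and Smad6 (0.0875) widths between ages, and no other member call. Promoter regions alone gave 3 and 485 calls by rank and 7 and 192 by width (fewer regions tested), ranking by fold gave 2 between genotypes, and uncentred widths gave 1506 and 3280. Leaving out each library gave 0 to 318 calls between genotypes and 269 to 1443 between ages by rank, 0 to 31 for the interaction, and 0 to 702 and 10 to 1235 by width, with every highest value without young WT Cre 2. Apart from the interaction, the lowest were without an old library. The cause was not tested.

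Of 31 uncalled member estimates examined, 14 changed sign in some alternative. By rank between genotypes, with each library left out, Bmpr2 ran from -0.33 to 0.059 (0.059 with the replicate block), Smad7 -24.6 kb from -0.011 to 0.28, the Smad7 promoter from -0.19 to 0.051, Tgfbr1 from -0.077 to 0.24 (-0.24 by fold), Id3 from -0.44 to 0.15 and Tgfbr2 from -0.19 to 0.44. By rank between ages, Eng ran from -0.41 to 0.14, Tgfbr1 from -0.31 to 0.011 and Tgfbr2 from -0.50 to 0.12 (0.12 by fold). By width between genotypes, Bmpr2 ran from -0.053 to 0.27, Eng from -0.092 to 0.18 (-0.031 with the block) and Id1 from -0.028 to 0.44. By width between ages, Smad7 ran from -0.070 to 0.054 (0.014 with the block, 0.038 among promoter regions alone, 0.48 uncentred) and Id1 from -0.11 to 0.36. Fits of promoter regions alone gave no value for regions without a promoter-TSS peak in every list. The alternatives for Id1 -9.4 kb, Smad7 -24.6 kb and Acvrl1 +17.1 kb were chosen after seeing the data.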
